A study of Mus musculus with 24 samples.

Results

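The choroid is the vascular layer behind the retinal pigment epithelium (RPE). Transcripts of genes that mark vessels and stroma were detected in every library of laser-captured RPE. Whether they came from the choroid or from other tissue was not tested. A set of 31 genes that mark such cells was followed here through every library: 14 endothelial genes, 10 mural genes (pericytes and smooth muscle) and 7 fibroblast genes. The genes were chosen by name as known markers of these cell types, out of 54232 gene identifiers in the count table. Earlier results of these data were known when they were chosen. All 31 passed the filter on low counts and were among the 20275 genes tested.

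The study set out to learn if loss of Per1 and Per2, repressors in the circadian clock, alters the daily programme of the RPE, the pigmented layer that takes up shed photoreceptor outer segments. Male mice of 6 weeks, all of the mixed strain C57BL/6/J x 129 SvEvBrd, were either Per1-/-Per2Brdm1, called KO here, or wild type (WT). Frozen eyes were taken at circadian time (CT) 19, 22, 1 and 10, and the RPE was cut out by laser capture microdissection before RNA sequencing. Each of the 8 groups (KO at CT19, CT22, CT1 and CT10, and WT at the same times) holds 3 libraries, 24 in all, and of these 4 KO libraries and 1 WT library were pooled from 2 eyes each. No label ties each library to an animal of its own, and a p-value therefore reflects how far libraries scatter, which may be technical.

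The capillary bed of the choroid, the choriocapillaris, lies against Bruch's membrane on the outer side of the RPE and supplies the RPE and the photoreceptors. Its endothelium is fenestrated, and the RPE is known to maintain it by secreting VEGF, which signals through receptors on endothelial cells. Pericytes and smooth muscle cells wrap the vessels, and fibroblasts of the stroma deposit collagen and proteoglycans around them.

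Total counts per library ran from 16245067 to 32066263. Read counts relative to the library's total (CPM, scaled with TMM factors) summed over 12 RPE genes came to 35085 to 68060 CPM, and over 15 rod photoreceptor genes to 16871 to 96527 CPM. As a check of the labels, Per1 ran from 76.9 to 252 CPM (median 116.1) in the 12 KO libraries and from 24.4 to 186 CPM (median 45.2) in the 12 WT libraries. Per2 ran from 75.4 to 153 CPM (median 106) in KO libraries and from 10.2 to 160.2 CPM (median 22.6) in WT libraries. Counts over whole genes do not show which exons are missing, and neither targeted gene was low in KO libraries, so KO names the libraries with that label throughout. Of the libraries that stood apart, CT22 KO library 2 had the highest rod sum, and CT1 WT library 2 had 739 CPM over 10 skeletal muscle genes, against at most 161 CPM in any other library.

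Promoters of 3 members are shown for the clock and endothelial motifs they hold. RefSeq windows on GRCm38.p6, from 250 bases before to 50 bases after a transcript start, were found for 19 of the 31 members, 22 windows in all. The E-box CACGTG, bound by the CLOCK and BMAL1 proteins, was searched on both strands (it is its own reverse complement). It occurred in 7.15% of all 32851 promoters and in 2 of the 22 windows of members, both of 1 member, Fbln1. The D-box TTATGNAA, searched on both strands, occurred in 3.38% of all promoters and in 1 of the 22 windows of members, that of Pdgfra. The ETS core AGGAAG is a sequence read by the ETS factors that direct endothelial genes. On either strand it occurred in 35.4% of all promoters and in 6 of the 22 windows of members, a share that was not higher. These windows belonged to 5 of the 19 members, the endothelial genes Egfl7, Emcn, Eng, Flt1 and Tie1. A match describes the letters in the window and is not a site of binding. In the following sequences, capitals mark the motif, which lies 81 bases before the start in Fbln1 (E-box), further upstream in Pdgfra (D-box, on the minus strand) and 129 and 53 bases before it in Flt1 (ETS core).
Fbln1 promoter, chr15:85205699-85205998, plus strand: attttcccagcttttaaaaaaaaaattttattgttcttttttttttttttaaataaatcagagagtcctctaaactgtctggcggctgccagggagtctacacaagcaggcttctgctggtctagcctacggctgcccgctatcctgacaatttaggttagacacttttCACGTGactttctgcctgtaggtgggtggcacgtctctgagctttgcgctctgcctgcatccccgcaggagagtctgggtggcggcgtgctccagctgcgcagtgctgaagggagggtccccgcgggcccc
Pdgfra promoter, chr5:75152001-75152300, plus strand: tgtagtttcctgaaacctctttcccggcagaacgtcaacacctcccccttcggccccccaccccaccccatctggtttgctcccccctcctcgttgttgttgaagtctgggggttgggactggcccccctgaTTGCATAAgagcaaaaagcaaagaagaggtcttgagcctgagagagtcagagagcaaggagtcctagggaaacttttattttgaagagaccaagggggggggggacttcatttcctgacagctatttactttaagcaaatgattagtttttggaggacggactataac
Flt1 promoter, chr5:147725962-147726261, minus strand: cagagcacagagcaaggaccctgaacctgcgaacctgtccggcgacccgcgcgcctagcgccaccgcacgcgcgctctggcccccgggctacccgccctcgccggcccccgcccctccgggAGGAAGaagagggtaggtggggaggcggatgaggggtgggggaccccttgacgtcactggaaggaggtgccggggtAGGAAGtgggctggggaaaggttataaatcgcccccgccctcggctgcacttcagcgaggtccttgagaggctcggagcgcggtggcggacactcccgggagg

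The vascular and stromal transcripts were present in every library. The 31 genes together came to 1144 CPM in the lowest library and 3167 CPM in the highest, a 2.77-fold span. No member was absent from any library: the smallest count was 39 reads, for Lum, and the largest 10308 reads, for Rgs5. In bulk RNA such as this, fewer cells of a type and less RNA per cell cannot be told apart.

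Levels of different genes were compared as CPM per kilobase of exon. Among endothelial genes Plvap, which forms the diaphragms of fenestrated capillaries, had the highest median over the 24 libraries, at 91.0 CPM per kb (GRCm38 chromosome 8, 71497765 to 71511752, minus strand). Endoglin (Eng), a TGF-beta co-receptor of endothelium, followed at 41.4 CPM per kb, and the secreted endothelial protein Egfl7 at 27.02 and Ramp2, a partner of the adrenomedullin receptor, at 26.0 CPM per kb. The VEGF receptors Flt1 and Kdr stood at 9.55 and 8.67 CPM per kb. Vwf, the clotting factor von Willebrand factor, was the lowest endothelial member at 2.94 CPM per kb.

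Among mural genes Acta2, smooth muscle actin, had the highest median at 69.2 CPM per kb (chromosome 19, 34241090 to 34255590, minus strand). The pericyte signalling regulator Rgs5 followed at 39.1 CPM per kb, and the PDGF receptor Pdgfrb, which recruits pericytes to vessels, at 22.1 CPM per kb. Kcnj8 and Abcc9 encode the pore and the regulatory subunit of the vascular ATP-sensitive potassium channel and lie next to each other on chromosome 6 (142564837 to 142571614 and 142587862 to 142702315, both on the minus strand). They stood at 7.09 and 1.89 CPM per kb. Of the fibroblast genes, collagen Col1a1 (10.5 CPM per kb; chromosome 11, 94936224 to 94953042, plus strand) and the proteoglycan decorin, Dcn (9.32 CPM per kb), were highest, and the PDGF receptor Pdgfra was lowest at 0.941 CPM per kb. The ranges of neighbours in this order overlapped throughout, as the plot of levels per kilobase shows.

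**Figure D1:**
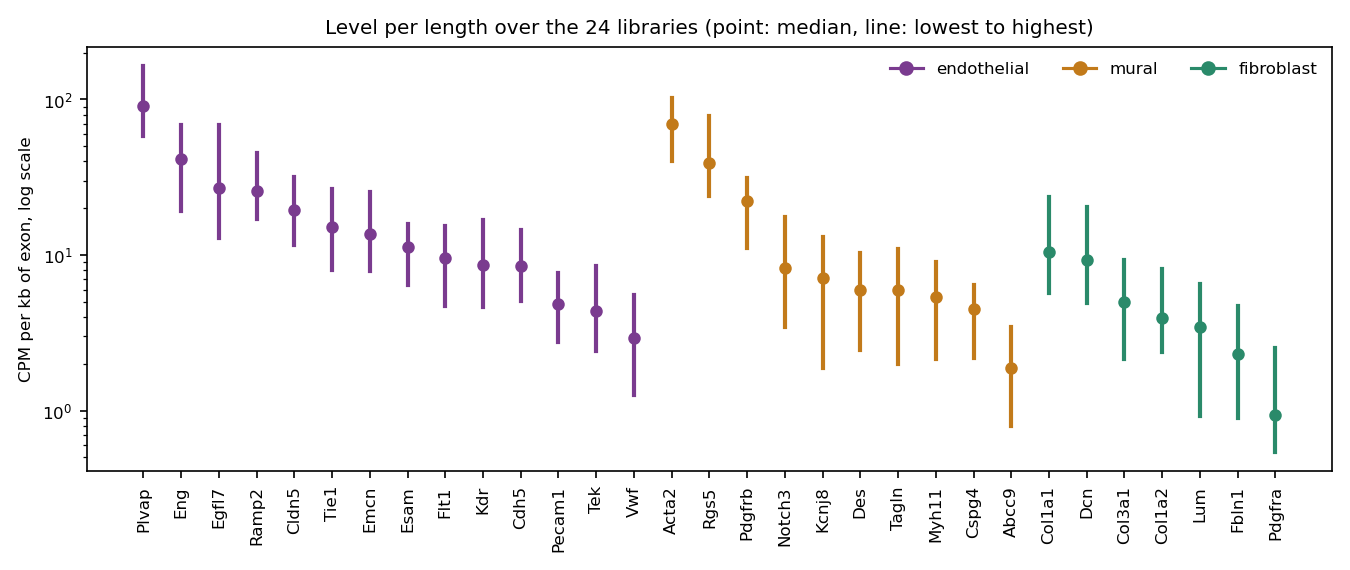
Level of each of the 31 genes in CPM per kilobase of exon (log axis), grouped by cell type and ordered by median within each. Points are medians and lines run from the lowest to the highest of the 24 libraries. Plvap (median 91.0) and Acta2 (69.2) stand highest and Pdgfra (0.941) lowest.

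The counting of a few members is uncertain because the strand setting is not given in the sources used here. Of the exon bases of Tagln, 62.4% overlap the antisense gene Gm48529, which had 1626 reads in all 24 libraries, and 5.43% overlap Pcsk7. Of those of Ramp2, 33.4% overlap Vps25 on the same strand, which had 492 reads. No other member shared more than 7.37% of its exon bases with another gene.

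A few genes led each class. Plvap, Eng and Flt1 gave on average 17.6%, 14.3% and 11.3% of the endothelial sum. Rgs5, Acta2 and Pdgfrb gave 28.0%, 22.3% and 16.9% of the mural sum, and Col1a1, Dcn and Col1a2 gave 28.0%, 22.6% and 19.3% of the fibroblast sum. Shares varied between libraries: Acta2 ran from 14.9% to 36.1% of the mural sum, and Egfl7 from 5.06% to 19.2% of the endothelial sum.

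The summed level of each class was lower on average in KO than in WT libraries at CT19 and CT22, and higher at CT1. At CT19 the 14 endothelial genes summed to 820.5, 838 and 924 CPM in KO libraries, against 824, 1217 and 1578 CPM in WT libraries. At CT22 they summed to 609, 1049 and 1256 CPM in KO libraries, against 921, 1665 and 1743 CPM in WT libraries. At CT1 they summed to 1196, 1269 and 1530.1 CPM in KO libraries, against 847, 1171 and 1208 CPM in WT libraries. The KO libraries stood mostly below the WT libraries at CT19 and CT22 and mostly above them at CT1, but the groups overlapped at each of these times. At CT10 the sums were 789.6, 1118 and 1314 CPM in KO libraries and 1053, 1135 and 1269 CPM in WT libraries, with the WT libraries inside the range of the KO libraries.

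The mural and fibroblast sums followed the same order. The mean mural sum in KO over that in WT was 0.756 at CT19, 0.674 at CT22, 1.21 at CT1 and 0.948 at CT10. The corresponding ratios were 0.714, 0.673, 1.24 and 0.932 for the endothelial sum and 0.873, 0.662, 1.26 and 0.878 for the fibroblast sum. Mural genes averaged 574 ± 178 CPM in KO and 852 ± 229 CPM in WT at CT22, and fibroblast genes averaged 204 ± 63.7 CPM in KO and 308 ± 118.99 CPM in WT (SD, n = 3 each). At CT1 mural genes averaged 821 ± 112.5 CPM in KO and 679.6 ± 98.3 CPM in WT, and fibroblast genes averaged 373 ± 117.6 CPM in KO and 295 ± 67.1 CPM in WT (SD, n = 3 each). The KO and WT libraries overlapped in all 12 combinations of class and time, and the sums were given no test of their own.

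**Figure D2:**
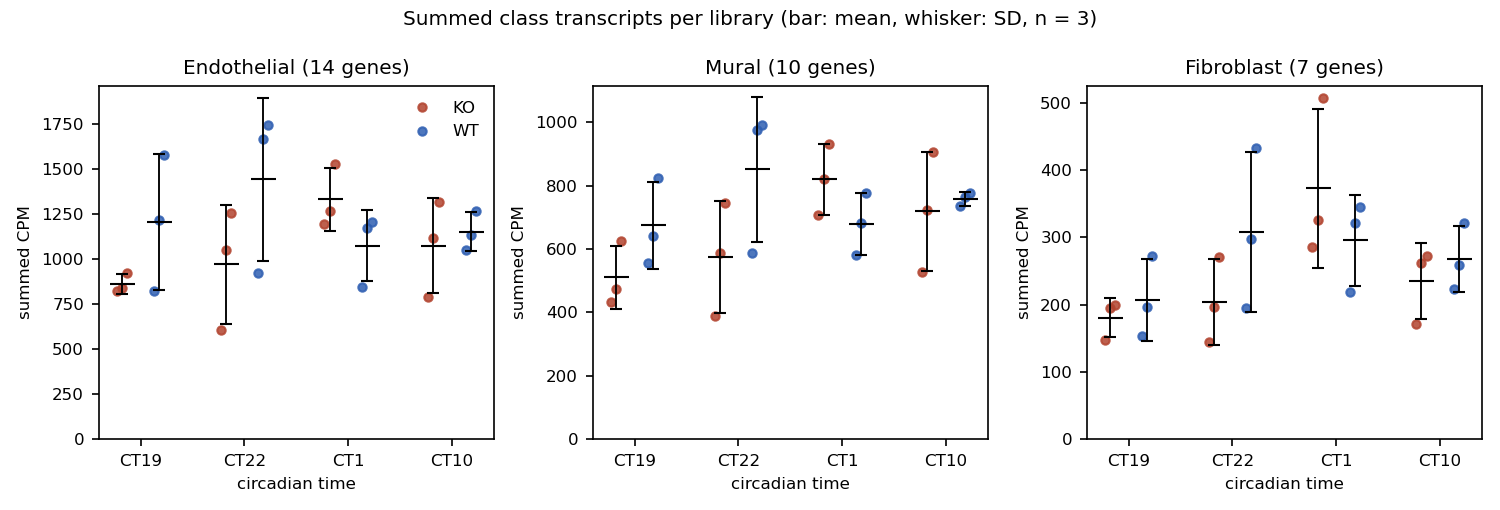
Summed CPM of the endothelial, mural and fibroblast genes in each library at CT19, CT22, CT1 and CT10, with KO left of WT. Points are libraries, bars are means and whiskers are SD (n = 3). The means are lower in KO at CT19 and CT22 and higher at CT1, with overlapping libraries throughout.

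Sums of the 3 classes mostly ranked the libraries of a group alike. The ratio of the endothelial to the mural sum stayed between 1.31 and 1.95 over the 24 libraries, whereas the endothelial sum spanned 2.86-fold and the mural sum 2.54-fold. The fibroblast sum spanned 3.498-fold, and the ratio of the endothelial to the fibroblast sum ran from 3.02 to 6.22. In 7 of the 8 groups the library with the highest endothelial sum also had the highest fibroblast sum, and in the other group it had the lowest. In 6 of the 8 groups the library with the lowest endothelial sum also had the lowest mural sum, and in the other 2 it had the highest. CT22 KO library 2 had the lowest level of 17 of the 31 members. The highest levels came mainly from CT22 WT library 6 (8 members), CT1 KO library 5 (8 members) and CT22 WT library 1 (7 members).

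Rod photoreceptor RNA ran in the opposite direction across libraries. Of the 12 libraries with a 31-gene sum above the median, 10 had a rod sum below the median. In 7 of the 8 groups the library with the lowest 31-gene sum had the highest rod sum. This was not particular to the 31 genes. Of the 12 libraries with an RPE sum above the median, 9 had a rod sum below the median. The library with the lowest RPE sum had the highest rod sum in 6 of the 8 groups. At CT22 the rod sum averaged 57205 ± 35055 CPM in KO and 25130 ± 11454 CPM in WT, and at CT1 27905 ± 2812 CPM in KO and 69034 ± 12239 CPM in WT (SD, n = 3 each). The KO and WT libraries did not overlap in the rod sum at CT1, where all 15 rod genes had a negative log2 fold change and 0 passed by edgeR with Benjamini-Hochberg adjustment (14 at an unadjusted p under 0.05). In the genotype by time interaction test 11 of the 15 rod genes passed, where 4.62% of all genes tested did. At CT19 the mean of the rod sum was 60369 CPM in KO and 42518 CPM in WT, and at CT10 40529 CPM in KO and 34414 CPM in WT. The part of rod RNA in the differences of vascular and stromal genes was not tested.

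Set against the 12 RPE genes, the 31-gene sum was 0.0257 to 0.0846 of the RPE sum. Markers of other cells differed in how far they ranked with the 31 genes. The library with the lowest 31-gene sum of a group also had the lowest sum of 6 melanocyte genes in 8 of 8 groups, or in 7 with Sox10 left out of that sum. For 11 macrophage genes it held in 8 of 8 groups, but in 5 with Csf1r, which made up most of that sum, left out. Leaving out these 2 genes was chosen after seeing the data. For 7 Schwann cell genes the lowest library was shared in 4 groups, for 5 blood genes in 2 and for the skeletal muscle genes in 1. How much of these cells each capture held was not tested.

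**Figure D3:**
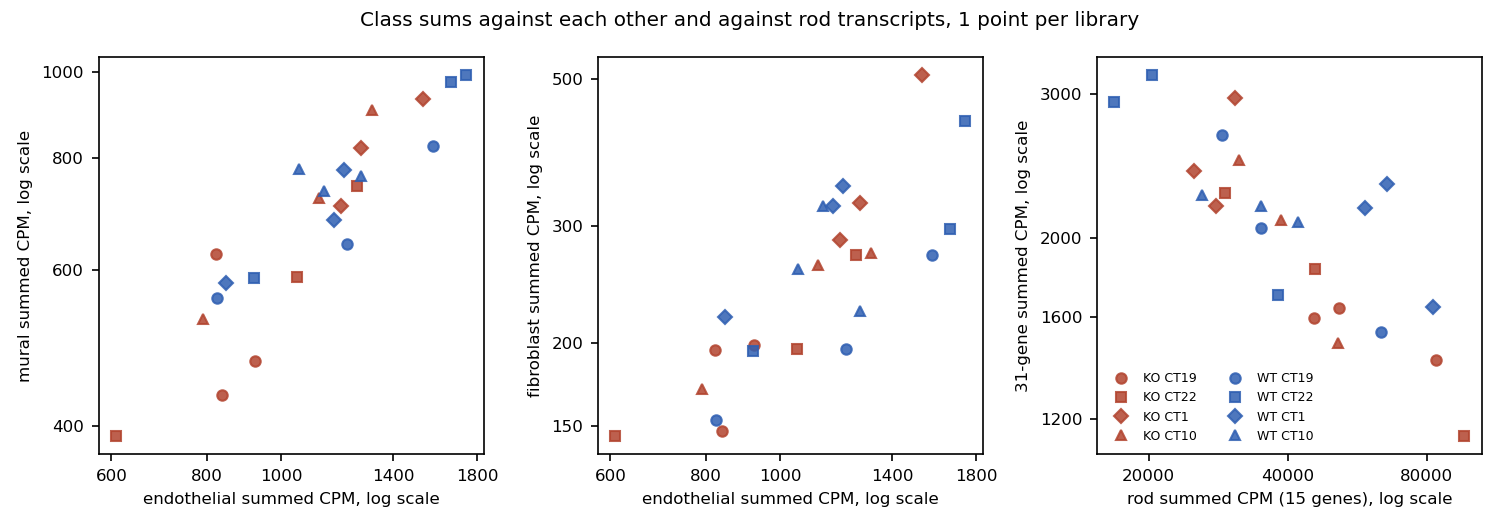
Summed CPM per library on log axes: mural against endothelial genes (left), fibroblast against endothelial genes (middle) and all 31 genes against 15 rod genes (right). Each point is 1 of the 24 libraries, with genotype by colour and time by shape. Libraries with more rod RNA tend to have less of the 31 genes: 10 of the 12 libraries above the median of the 31-gene sum lie below the median of the rod sum.

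Tested one by one with edgeR's quasi-likelihood test, no member was called between KO and WT, over the mean of the 4 times or at any one time, when p was adjusted by Benjamini-Hochberg (threshold 0.05). Over the 4 times 0 of 31 members passed, where 0.375% of all genes did. The fitted log2 fold change (KO minus WT) was negative for 29 of the 31 and its median was -0.19, beside a median of 0.02 over all genes. At an unadjusted p under 0.05 there were 4 members lower in KO, where 2.93% of all genes were lower, and none higher, where 4.14% were higher. DESeq2 called 0 members, where it called 0.834% of all genes. The count of 4 ran from 3 to 11 when 1 library was left out: 7 without the CT22 KO pool or CT19 KO library 4, 8 without CT1 WT library 2, 9 without CT10 KO library 2 or CT1 KO library 5, 10 without CT22 KO library 3 or CT19 WT library 1, and 11 without CT22 WT library 3. The standard errors of the 4-time averages were 0.11 to 0.28 on the log2 scale.

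The 4 members below the unadjusted threshold span all 3 classes. Des, the intermediate filament desmin of muscle and mural cells, had a log2 fold change of -0.44 ± 0.14 (SE; adjusted p = 0.328 by edgeR with Benjamini-Hochberg adjustment), the smallest adjusted p of the set over the 4 times. The potassium channel pore Kcnj8 was at -0.48 ± 0.19 and the fibroblast receptor Pdgfra at -0.46 ± 0.18. The VEGF receptor Flt1 was at -0.32 ± 0.14. Desmin is also a protein of skeletal muscle, and its highest level, 38.6 CPM, was in CT1 WT library 2, the library with 739 CPM of skeletal muscle genes. The part of that tissue was not tested.

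**Figure D4:**
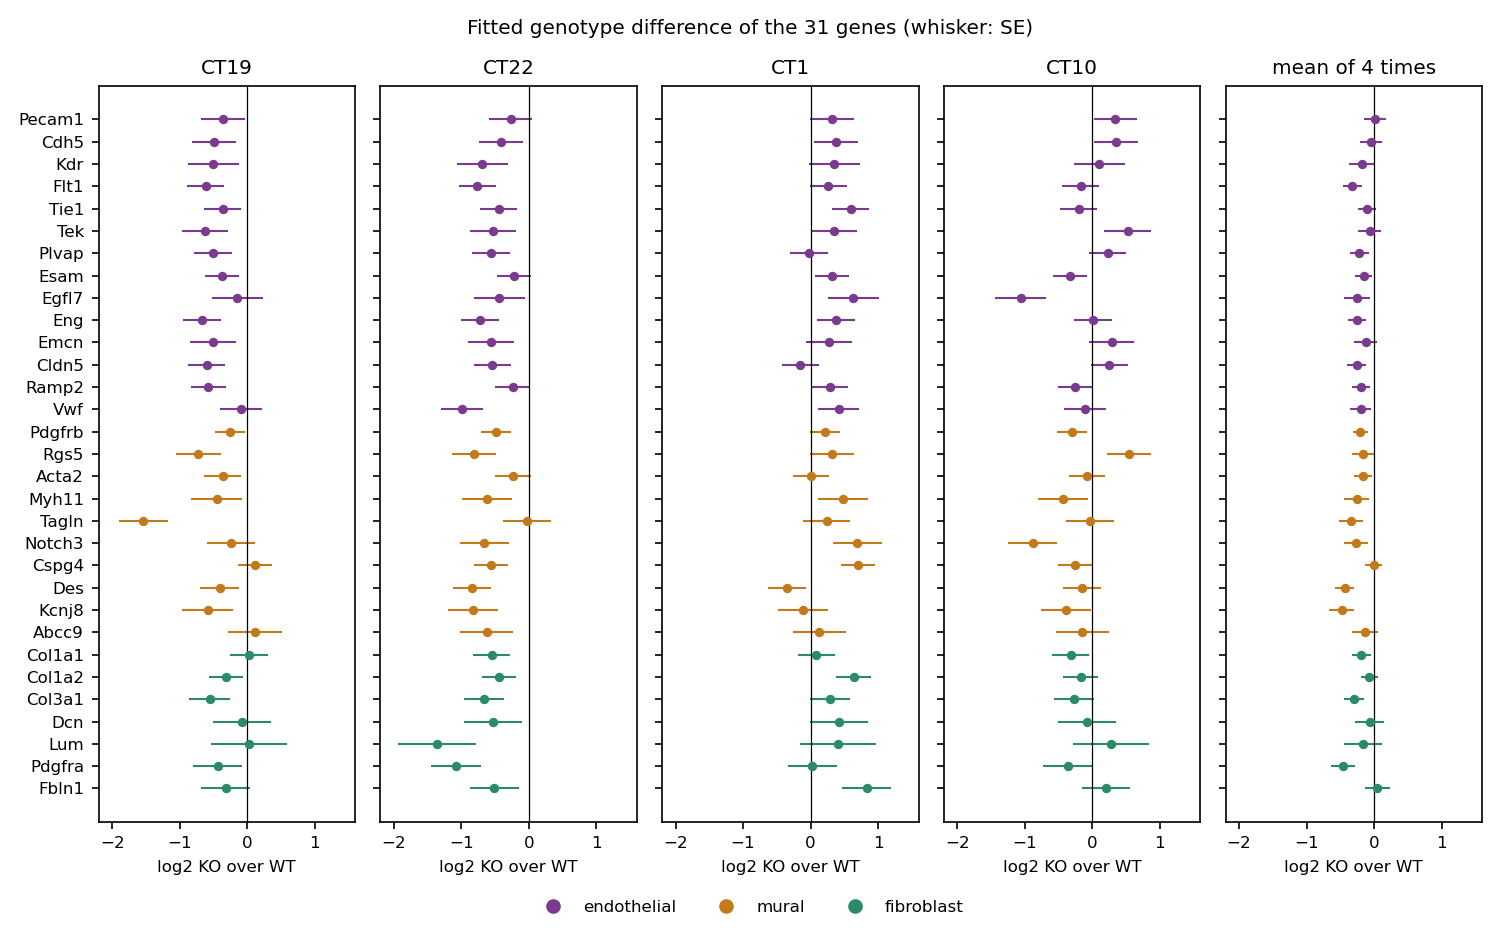
Fitted log2 fold change, KO minus WT, of each of the 31 genes over the 4 times and at each time, coloured by class. Whiskers are SE and the line at 0 marks equal levels. All 31 values are negative at CT22 and 27 are positive at CT1.

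At CT19 endothelial genes lay lower in KO, without a call. The count passing was 0 of 31, where 0.0691% of all genes passed. All 14 endothelial members, 8 of 10 mural members and 5 of 7 fibroblast members had a negative log2 fold change, with a median of -0.41 over the 31 and -0.01 over all genes. The median was -0.50 for endothelial, -0.38 for mural and -0.31 for fibroblast members. At an unadjusted p under 0.05 there were 6 members lower in KO (Flt1, Eng, Cldn5, Ramp2, Rgs5 and Tagln), where 2.35% of all genes were lower, and 0 higher, where 1.12% were higher. DESeq2 called 1 member, Tagln, where it called 0.192% of all genes.

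Tagln, which encodes the smooth muscle actin-binding protein transgelin, had the smallest adjusted p at CT19, from counts that may include reads of its antisense neighbour. It was at 3.97, 5.51 and 5.93 CPM in KO libraries, against 8.94, 13.9 and 21.9 CPM in WT libraries. Every KO library was below every WT library. The log2 fold change was -1.54 ± 0.36 (SE; edgeR adjusted p = 0.176, DESeq2 adjusted p = 0.0214). Claudin-5 (Cldn5), a tight junction protein of endothelium, was at 17.8, 18.8 and 23.4 CPM in KO libraries, against 26.0, 28.0 and 36.8 CPM in WT libraries. Cldn5 also showed no overlap, as did Cdh5, the endothelial cadherin, and Rgs5. In all, 4 of 31 members had every KO library below every WT library, where 5.31% of all genes did, and 0 had every KO library above, where 3.96% did.

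The CT19 pattern rested in part on single libraries. Without CT19 WT library 4 the median of the 31 was -0.14, and 1 member was left below the unadjusted threshold. Without CT19 WT library 1 the median was -0.54 with 11 such members. There were 3 without KO library 2 and 2 without the pooled KO library.

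At CT22 every member of the set had a negative log2 fold change. None of the 31 passed, where 0.227% of all genes did. The median was -0.56, against 0.03 over all genes, where 47.2% of genes were negative, and by class it was -0.53 for endothelial, -0.62 for mural and -0.55 for fibroblast members. At an unadjusted p under 0.05 there were 11 members lower in KO, where 3.65% of all genes were lower, and 0 higher, where 9.02% were higher. The 11 were Flt1, Eng and Vwf of the endothelial genes, Pdgfrb, Rgs5, Cspg4, Des and Kcnj8 of the mural genes, and Col3a1, Lum and Pdgfra of the fibroblast genes. DESeq2 called 0, where it called 1.36% of all genes.

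Vwf had the smallest adjusted p at CT22. It was at 20.4, 40.1 and 43.6 CPM in KO libraries, against 35.3, 83.5 and 88.6 CPM in WT libraries. The lowest WT library lay inside the KO range. The log2 fold change was -0.995 ± 0.31 (SE; edgeR adjusted p = 0.192). Des was at 9.27, 13.5 and 24.0 CPM in KO libraries, against 24.2, 25.3 and 34.2 CPM in WT libraries, with a log2 fold change of -0.84 ± 0.28 (SE; edgeR adjusted p = 0.219). Its groups met without overlap.

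Pdgfra, whose promoter with the D-box is shown above, was at 5.50, 8.65 and 9.70 CPM in KO libraries at CT22, against 11.1, 13.97 and 25.3 CPM in WT libraries. No library overlapped, and the log2 fold change was -1.08 ± 0.37 (SE; edgeR adjusted p = 0.220). Flt1 was at 63.1, 119.5 and 126.6 CPM in KO libraries, against 116.6, 199.9 and 209 CPM in WT libraries, and here the lowest WT library lay inside the KO range. Des and Pdgfra were the 2 of 31 members with every KO library below every WT library, where 4.79% of all genes did so, and 0 were above, where 8.01% of all genes were.

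The number of members below the unadjusted threshold at CT22 followed single libraries. It was 3 without KO library 2, 22 without KO library 3, 5 without WT library 1, 24 without WT library 3 and 4 without WT library 6. The median of the 31 ran from -0.85 to -0.31 over the 6 fits that each left out 1 CT22 library. It was -0.37 without KO library 2, the library with the highest rod sum.

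At CT1 the sign was the other way. Of the 31 members 27 had a positive log2 fold change (12 of 14 endothelial, 8 of 10 mural and 7 of 7 fibroblast), with a median of 0.32 against -0.01 over all genes. None of the 31 passed, where 0.533% of all genes did. At an unadjusted p under 0.05 there were 4 members higher in KO (Tie1, Cspg4, Col1a2 and Fbln1), where 7.63% of all genes were higher, and 0 lower, where 11.9% were lower. DESeq2 called 0, where it called 5.34% of all genes.

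These 4 genes were also those with every KO library above every WT library at CT1, 4 of 31, where 10.1% of all genes did so, and 0 were below, where 14.6% of all genes were. Cspg4, the NG2 proteoglycan of pericytes, was at 50.2, 59.1 and 68.3 CPM in KO libraries, against 31.1, 34.1 and 44.2 CPM in WT libraries. Its log2 fold change was 0.70 ± 0.25 (SE; edgeR adjusted p = 0.133). The collagen Col1a2 was at 61.1, 67.4 and 100.9 CPM in KO libraries, against 39.998, 52.2 and 55.2 CPM in WT libraries, with a log2 fold change of 0.64 ± 0.26 (SE; edgeR adjusted p = 0.173). The separation was narrow for Col1a2 and wider for Fbln1.

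Fbln1, the matrix protein fibulin-1, whose promoter with the E-box is shown above, was at 13.0, 18.2 and 20.6 CPM in KO libraries at CT1, against 8.85, 9.96 and 10.3 CPM in WT libraries. Its log2 fold change was 0.83 ± 0.36 (SE; edgeR adjusted p = 0.200). Tie1, an orphan receptor that modulates angiopoietin signalling, was at 80.4, 82.0 and 131.6 CPM in KO libraries, against 53.4, 66.3 and 74.9 CPM in WT libraries. Of the 4 members below the unadjusted threshold, 2 were left without CT1 WT library 2 and 1 without CT1 KO library 5. The median of the 31 was 0.17 and 0.21 in those fits.

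At CT10 the set as a whole was closest to equal. The median log2 fold change was -0.15, against 0.09 over all genes, and 20 of the 31 were negative. None of the 31 passed, where 0.0345% of all genes did. At an unadjusted p under 0.05 there were 2 members lower in KO, where 7.12% of all genes were lower, and 0 higher, where 10.7% were higher. Every KO library was below every WT library in 4 members (Egfl7, Pdgfrb, Notch3 and Kcnj8), where 12.4% of all genes did so, and 0 were above, where 17.7% of all genes were.

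Egfl7 and Notch3, the receptor that mural cells need in arteries, were the 2. Egfl7 was at 80.5, 83.1 and 113.4 CPM in KO libraries at CT10, against 151, 184 and 243 CPM in WT libraries. Its log2 fold change was -1.06 ± 0.38 (SE; edgeR adjusted p = 0.170, DESeq2 adjusted p = 0.0388). Egfl7 was the 1 member that DESeq2 called at CT10, where it called 3.7% of all genes. Notch3 was at 52.1, 66.4 and 67.3 CPM in KO libraries, against 96.0, 120.3 and 126.6 CPM in WT libraries, with a log2 fold change of -0.88 ± 0.36 (SE; edgeR adjusted p = 0.212). WT libraries were clearly apart for both genes, yet neither was below the unadjusted threshold without CT10 WT library 1. Without CT10 KO library 4, 1 member was lower and 1 was higher in KO at that threshold. The median of the 31 at CT10 was -0.04 without KO library 4 and -0.32 without KO library 2.

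**Figure D5:**
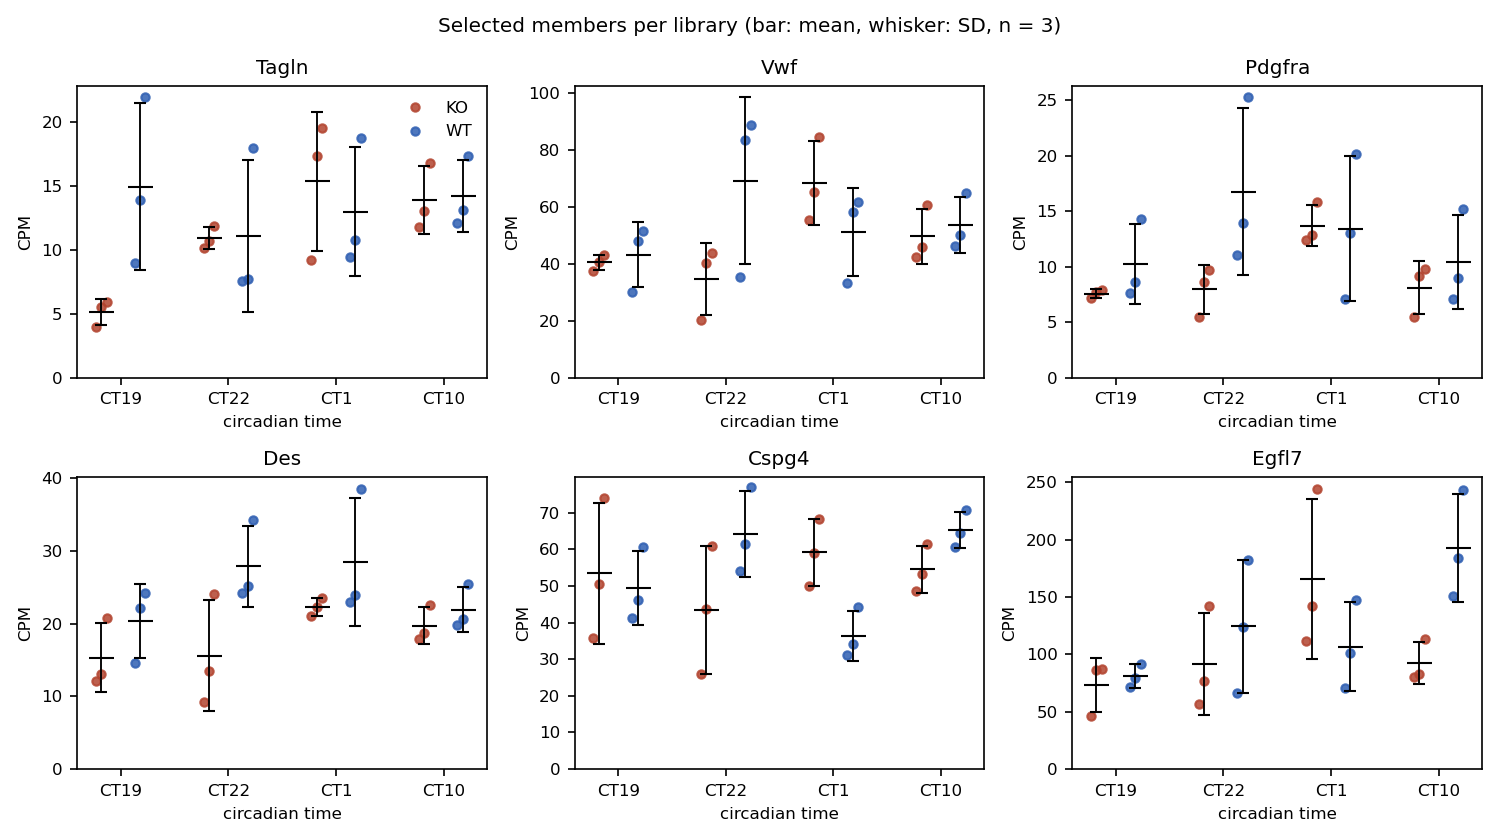
CPM of Tagln, Vwf, Pdgfra, Des, Cspg4 and Egfl7 in each library at CT19, CT22, CT1 and CT10, with KO left of WT. Points are libraries, bars means and whiskers SD (n = 3). KO libraries lie below WT libraries for Tagln at CT19, Pdgfra and Des at CT22 and Egfl7 at CT10, and above them for Cspg4 at CT1.

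Read across the 4 times, 27 members were negative at both CT19 and CT22, and 23 of these were positive at CT1. The most negative of the 4 values fell at CT22 in 21 members and the most positive at CT1 in 24 members. Des and Kcnj8 were the 2 members with the same sign at all 4 times. The 12 RPE genes mostly shared the signs of the set at CT19, CT22 and CT1, with smaller medians. Of these, 12 were negative at CT19 (median -0.17), 11 negative at CT22 (-0.11) and 10 positive at CT1 (0.17). At CT10, 8 of the 12 were positive (median 0.29). Whether the genotype difference changed with time was tested by the interaction. It was called for 0 of 31 members, where 4.62% of all genes were called, and 9 members had an unadjusted p under 0.05, where 22.3% of all genes did. Tagln came nearest (edgeR adjusted p = 0.0773), with a log2 range of 1.78, the highest minus the lowest of the 4 differences. DESeq2, which called 11.3% of all genes in the interaction, called 5 members: Rgs5, Egfl7, Tagln, Cspg4 and Notch3.

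Within KO the fibroblast collagens Col1a1, Col1a2 and Col3a1 had their lowest mean at CT19 and their highest at CT1, without a call. Col1a2 was at 31.2, 32.8 and 35.5 CPM in KO libraries of CT19, and CT22 gave 29.6, 44.3 and 46.3 CPM. In the KO libraries of CT1 it was at 61.1, 67.4 and 100.9 CPM, and in those of CT10 at 34.7, 51.7 and 57.3 CPM. The 3 libraries of CT1 stood above the other 9. The log2 range over the times was 1.21 (edgeR adjusted p = 0.211). Col3a1 had a log2 range of 1.32 and Col1a1 one of 1.00 (edgeR adjusted p = 0.279 and 0.283). None of the 31 passed the test over time within KO, where 0% of all genes did, and 12 had an unadjusted p under 0.05, where 11.7% of all genes did. DESeq2 called 4 (Col1a1, Col3a1, Col1a2 and Tagln), where it called 1.02% of all genes.

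Within WT the mural genes Cspg4 and Notch3 and the endothelial gene Egfl7 had their highest mean at CT10, without a call. Cspg4 was at 41.2, 46.3 and 60.7 CPM in WT libraries of CT19, and CT22 gave 54.2, 61.5 and 77.1 CPM. In the WT libraries of CT1 it was at 31.1, 34.1 and 44.2 CPM, and in those of CT10 at 60.8, 64.4 and 70.7 CPM. Its CT1 libraries were below all libraries of CT22 and CT10. The log2 range was 0.84 (edgeR adjusted p = 0.137). Egfl7 was highest at CT10, with a log2 range of 1.25, and Notch3 likewise, with 1.22 (edgeR adjusted p = 0.192 and 0.159). None of the 31 passed over time within WT, where 0.947% of all genes did, and 6 had an unadjusted p under 0.05, where 19.3% of all genes did. DESeq2 called 3 (Egfl7, Cspg4 and Notch3), where it called 6.51% of all genes.

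By group mean, WT at CT22 was the highest group for 9 of the 14 endothelial members, and KO at CT1 was the highest for 5 of the 7 fibroblast members. KO at CT19 was the lowest group for 10 endothelial, 7 mural and 5 fibroblast members. The ratio of the endothelial to the fibroblast sum was 3.02, 3.90 and 4.18 in the KO libraries of CT1 and 4.20 to 5.68 in the KO libraries of the other times. In WT it was 3.499, 3.64 and 3.87 at CT1, and 5.39, 5.81 and 6.22 at CT19. At CT22 the WT values were 4.04, 4.73 and 5.5996, and at CT10 they were 3.53, 4.07 and 5.67, the last group overlapping that of CT1. Relative to endothelial genes, fibroblast genes were thus higher at CT1 than at CT19 in both genotypes, without overlap of libraries, though by a narrow gap in KO.

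Of 18 further endothelial genes, such as the transcription factors Erg and Sox17, 17 were negative at CT19 and 16 at CT22, and 15 were positive at CT1. None passed in any of the 8 comparisons by edgeR with Benjamini-Hochberg adjustment. Of 22 further matrix genes, 20 were negative at CT19, 21 at CT22 and 19 over the 4 times, and again none passed. Within this list the smallest adjusted p over the 4 times was that of Col4a1, a collagen of basement membranes (log2 fold change -0.79 ± 0.18 (SE), edgeR adjusted p = 0.0562). Col4a1 was at 35.8, 64.8 and 83.5 CPM in KO libraries at CT22, against 78.9, 130.7 and 258 CPM in WT libraries.

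Of 14 further mural genes, 11 were negative at CT19 and 11 at CT22. At CT1, where 8 of the 10 mural members were positive, 9 of the 14 were negative. The library of a group with the lowest sum of the mural members had the lowest sum of these 14 genes in 0 of 8 groups. Of the 14, 2 passed the interaction test, where 4.62% of all genes did. Smtn, the smooth muscle protein smoothelin, averaged 49.4 ± 15.4 CPM in KO and 30.6 ± 5.30 CPM in WT at CT1, and 31.4 ± 5.96 CPM in KO and 52.5 ± 0.405 CPM in WT at CT10 (SD, n = 3 each). The difference changed with time by a log2 range of 1.43 (edgeR adjusted p = 0.0361). Synpo2, an actin-binding protein of muscle, went the other way, with 21.9 ± 3.502 CPM in KO and 47.0 ± 15.1 CPM in WT at CT1 and 32.9 ± 8.59 CPM in KO and 20.4 ± 0.660 CPM in WT at CT10 (SD, n = 3 each; log2 range 1.88, edgeR adjusted p = 0.0378). When each library was left out in turn, the call held for Smtn in 14 and for Synpo2 in 7 of 24 fits, with adjusted p up to 0.115 and 0.157 by edgeR. The call for Smtn was lost without KO library 2 or 4 of CT10, KO library 5 or the KO pool of CT1, WT library 1 or 4 of CT10, WT library 1 or 6 of CT22, and WT library 2 or the WT pool of CT1. The call for Synpo2 was lost without any of these, and also without KO library 1 of CT1, the KO pool of CT10, KO library 2 of CT22, KO library 4 of CT19, WT library 2 of CT10, or WT library 2 or 4 of CT19. Without the pooled libraries the edgeR adjusted p of Synpo2 was 0.123.

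Of 22 ligands, receptors and targets of vascular signalling, 1 passed the interaction test (Vegfa), where 4.62% of all genes did. Over time within WT 2 passed (Vegfa and Pgf), where 0.947% of all genes did. Vegfa, the VEGF ligand that the RPE secretes, averaged 1101 ± 46.2 CPM in KO and 568 ± 97.0 CPM in WT at CT1, and 832 ± 113.4 CPM in KO and 1257 ± 214 CPM in WT at CT10 (SD, n = 3 each). All 3 KO libraries were above all 3 WT libraries at CT1 and below them at CT10. The interaction had a log2 range of 1.55 (edgeR adjusted p = 0.0257), and the change over time within WT one of 1.15 (edgeR adjusted p = 0.0403). Its receptors Flt1 and Kdr, which are members, did not pass either test.

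Pgf, placental growth factor, a ligand of Flt1, averaged 17.9 ± 2.57, 23.9 ± 7.75, 29.8 ± 11.2 and 49.7 ± 4.66 CPM in WT libraries at CT19, CT22, CT1 and CT10 (SD, n = 3 each; log2 range 1.47, edgeR adjusted p = 0.0406). All 3 WT libraries of CT10 were above the other 9 WT libraries. When each library was left out in turn, the interaction call for Vegfa held in 16 of 24 fits, and the calls over time within WT held in 18 for Vegfa and 16 for Pgf, with edgeR adjusted p up to 0.0877, 0.126 and 0.161. The interaction call was lost without any KO library of CT1, KO library 2 or 4 of CT10, WT library 1 of CT10, and WT library 2 or the WT pool of CT1. Over time within WT both calls were lost without any WT library of CT10, the WT pool of CT1 or WT library 6 of CT22. That of Vegfa was also lost without WT library 2 of CT1, and that of Pgf without any WT library of CT19. Without the pooled libraries the edgeR adjusted p over time within WT was 0.122 for Vegfa and 0.104 for Pgf.

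Of 7 Schwann cell genes, which mark the nerves of the choroid, Cdh19 alone passed. The call was over the mean of the 4 times, where 0.375% of all genes passed. Cdh19 ran over the 4 times at 1.54 to 7.47 CPM in the KO libraries and at 1.70 to 22.9 CPM in the WT libraries. Its log2 fold change was -1.52 ± 0.30 (SE; edgeR adjusted p = 0.0114). The call held in all 24 fits that left out 1 library, but not without the pooled libraries (edgeR adjusted p = 0.183). No gene of the melanocyte or macrophage lists passed in any of the 8 comparisons.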

How the data were processed

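RNA was sequenced from 24 libraries of laser-captured RPE, 8 groups of 3, mapped to groups by their labels. The authors deposited 1 table of raw read counts, whole numbers that were not normalized. The submitters' processing notes name HISAT2 2.1.0, HTSeq 0.11, Trimmomatic 0.32 and Cufflinks as tools and GRCm38.p6 as the genome build. Their order, the annotation release and the strand setting are not given in the sources used here. Of 54232 identifiers, 54079 were matched to a symbol, 153 were not, and 98 with a duplicated symbol kept the identifier. The table held 0 columns without a sample and 0 rows of unassigned reads.

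Tests used edgeR 4.0.16 (R 4.3.3): filterByExpr (minimum count 10 over the 8 groups), TMM scaling, and 1 robust quasi-likelihood model of 8 group means with 16 residual degrees of freedom. Contrasts were KO minus WT over the 4 times and at each time, any change over time within each genotype, and the interaction, with Benjamini-Hochberg adjustment over 20275 genes and a threshold of 0.05. The fit was tried on simulated data with some genes changed in all KO libraries. Only the contrast over the 4 times was checked in this way. CPM use the TMM factors, class sums add the members' CPM, and levels per kilobase divide by the union of exons in the GENCODE annotation of GRCm38. Errors of CPM are SD (3 libraries), and those of log2 fold changes are SE from the fit. Total counts from 16245067 to 32066263 per library set the precision.

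The members and lists were chosen with earlier results of these data known. Named were all 31 members, the genes of other lists past the threshold (up to 5 by smallest p), the list extremes, and Per1 and Per2 as a check of the labels. Further examples, such as Erg and Sox17, say what a list holds. Alternatives were RLE scaling, no filter on low counts, DESeq2 1.42.0, leaving out pools or each library, and the title number as a replicate block. Leaving out CT22 KO library 2 and CT1 WT library 2 together was chosen after seeing the data. Counts of any pair of libraries within a group differed by more than sampling noise (lowest chi-square per degree of freedom 29.3). Promoters are RefSeq windows. A further result among the listed genes is not reported here.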

Additional observations from a re-analysis of the deposited data

Results flagged for a closer look

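For 11 genes of the other lists that are reported here (at most 5 a list, by smallest p), the KO minus WT difference changed with time by edgeR's interaction test with Benjamini-Hochberg adjustment. In the list of vascular signalling genes this was Vegfa (adjusted p = 0.0257). It averaged 1101 CPM in KO and 568 CPM in WT at CT1, and 832 CPM in KO and 1257 CPM in WT at CT10. In the list of further mural genes they were Smtn (0.0361) and Synpo2 (0.0378). Synpo2 was lower in KO at CT1 and higher at CT10, as the rod sum was, and the cells it came from were not tested. Among rod photoreceptor genes they were Nrl (0.0304), Prph2 (0.0338), Rom1 (0.0351) and Pdc (0.0376). In all, 11 of the 15 rod genes passed this test, where 4.62% of all genes tested did. The inner retina genes Gad1 (0.0210) and Grm6 (0.0446) and the targeted genes Per2 (0.00151) and Per1 (0.0208) complete the 11.

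The replicate block leaves fewer residual degrees of freedom than the main fit. With it the edgeR adjusted p of Per2 was 0.000144, and those of the other 10 were 0.158 or higher. In the 24 fits that left out 1 library each, the call held in 24 for Per2, 19 for Per1, 18 for Gad1 and 4 for Grm6. The causes were not tested.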

How the results depend on the processing

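Members called at an adjusted p under 0.05 numbered 0 in each of the 8 comparisons by edgeR, and also 0 in each with RLE scaling, without the 5 libraries pooled from 2 eyes, with the replicate block, and without CT22 KO library 2 and CT1 WT library 2 together. With no filter on low counts, edgeR called 2 members over the 4 times, 1 at CT19, 11 at CT22, 4 at CT1, 2 at CT10, 13 over time within KO, 7 over time within WT and 16 in the interaction. The shares of all genes called in that setting were, in the same order, 1.16%, 0.358%, 2.47%, 4.76%, 3.06%, 3.83%, 6.61% and 8.22%. DESeq2 called 1 at CT19, 1 at CT10, 4 over time within KO, 3 over time within WT and 5 in the interaction. Its shares of all genes were, in the same order, 0.192%, 3.7%, 1.02%, 6.51% and 11.3%. Over the 24 fits that left out 1 library each, the count ran from 0 to 1 at CT22, from 0 to 1 over time within WT, and from 0 to 3 in the interaction (3 without CT22 WT library 3), and it was 0 in the other 5 comparisons. The cause was not tested.

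Counts over all genes depended more on the setting. The interaction called 937 genes by edgeR, 2293 by DESeq2, 2686 with no filter, 298 without the pooled libraries, 101 without the 2 libraries left out together and 3 with the replicate block. Over the 4 times 76 genes were called, and 36 with the replicate block. The sources do not say whether the numbers in the titles pair the libraries. Of 6 pairs with the same number and time, 2 had deviations from the group means that correlated over 0.1 (range -0.194 to 0.175). These values cannot decide it, because pairs with unlike numbers were not compared and each mean rests on 3 libraries. With the replicate block the calls of Vegfa, Pgf, Smtn, Synpo2 and Cdh19 were lost (edgeR adjusted p from 0.0584 to 0.529), and the median log2 fold change of the 31 members was -0.40 at CT19, -0.53 at CT22, 0.42 at CT1 and -0.01 at CT10.

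For the class sums, every alternative log2 ratio of KO over WT (scaling, pools, summary, left-out libraries) lay less than 1 SD from the main one. That SD is the spread of log2 sums between single libraries of a group, pooled over the groups. Leaving out 1 of 3 libraries moves a group mean by less than the SD of that group. The left-out libraries could therefore hardly exceed this limit, and staying within it does not show that the ratios are stable. With 3 libraries a group, the standard error of a member's difference at 1 time ran from 0.22 to 0.57 on the log2 scale. Differences well above these errors also went uncalled: the largest, -1.54 for Tagln at CT19, did not pass by edgeR. The lack of a call therefore does not exclude a difference of that size.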
